A study of Mus musculus with 3 samples.

Results

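The clustered protocadherins are cell adhesion genes that stand in 3 neighbouring clusters, alpha, beta and gamma, on mouse chromosome 18. They were taken as the protein-coding genes of the mouse annotation (GENCODE vM21, assembly GRCm38, which is mm10) whose symbol begins with Pcdha, Pcdhb or Pcdhg followed by a letter or digit. That gave 57 genes of 21853 protein-coding genes, all read from the plus strand: 12 alpha genes, 22 beta genes, 12 gamma A genes, 6 gamma B genes and 5 C-type genes (Pcdhac1, Pcdhac2, Pcdhgc3, Pcdhgc4 and Pcdhgc5). They span chr18:36930184-37841873, or 911.69 kb. The annotation gives 2 genes the symbol Pcdha11, and the one with the lower start is called Pcdha10 here, the RefSeq symbol at that place.

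Openness was read from 3 DNase-seq libraries of 1 group: primary natural killer cells, the lymphocytes that kill infected or transformed cells, from male adult B6CASTF1/J mice of 2 months. All 3 libraries carry the same donor label, so p-values measure only the spread between these libraries, which may be technical, and there is no second cell type or treatment to set them against. DNase I is an enzyme that cuts where nucleosomes leave DNA bare. The authors deposited, for each library, peaks (stretches with many cuts), footprints (short protected stretches, at which a bound protein may shield the DNA) and the false discovery rate (FDR) of the cut rate.

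In neurons, each alpha and gamma transcript joins 1 variable first exon, which has its own promoter, to 3 constant exons at the end of its cluster, whereas each beta gene is a single exon. A neuron uses few of these promoters, chosen by chance, apart from the C-type genes, which many neurons share. The proteins bind their own kind on the facing membrane, which lets a neurite tell itself from its neighbours. CTCF, a zinc finger protein that halts cohesin, binds many of the promoters and the enhancers that lie past the alpha and gamma clusters, and DNA methylation and the protein SMCHD1 are known to keep promoters shut. In mouse, the enhancer HS5-1 lies past the alpha cluster and the elements HS16 to HS20 lie past the gamma cluster. No file used here gives their positions, so no region below is equated with them.

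Replicates 1, 2 and 3 held 40484, 84564 and 81854 peaks and 101990, 239483 and 222990 footprints. Read depth is unknown from these files, and a gene without a listed peak is not shown to have no cuts. Promoters of the natural killer markers were open, meaning that a peak overlapped the 500 bp on either side of a coding start site, for 5 of 8 genes in all 3 libraries and for 8 of 8 in replicates 2 and 3. Of the 21796 protein-coding genes other than the protocadherins studied here, 51.4% were open in all 3 libraries. In replicates 2 and 3, 58.9 and 58.1% of them were open. The natural killer share in all 3 libraries, 62.5% of 8 genes, was near that of other genes. The most highly ranked natural killer markers were Il2rb, Prf1, Gzmb and Ncr1. Their mean percentiles of peak signal, within each library, were 91.7 ± 4.30, 90.5 ± 3.75, 85.5 ± 7.06 and 83.0 ± 6.61 (SD, n = 3). These 4 stood at percentiles of 77.5 to 87.6 in replicate 1, 81.1 to 91.3 in replicate 2 and 90.3 to 96.2 in replicate 3. The 6 B cell markers reported here were open in all 3 libraries, with percentiles of 13.2 to 57.5 in replicate 1, 83.8 to 96.1 in replicate 2 and 66.1 to 92.4 in replicate 3. In replicate 2 this range lay higher at both ends than that of the 4 natural killer markers. Ebf1, Cr2, Pax5 and Cd79a had the highest mean percentiles among them, 76.6 ± 17.2, 76.1 ± 17.8, 73.8 ± 35.5 and 67.7 ± 29.3 (SD, n = 3). Open in all 3 were also 2 of 6 T cell markers, 0 of 5 monocyte and macrophage markers, 1 of 8 neuron markers, 1 of 4 endothelial markers and 0 of 4 fibroblast markers. The open ones of these were Lef1 and Cd3d among the T cell markers, with mean percentiles of 70.0 ± 8.28 and 44.3 ± 12.2, the neuron marker Syn1 with 78.3 ± 14.6 and the endothelial marker Pecam1 with 60.8 ± 22.5. In replicates 2 and 3, 5 and 4 of the 8 neuron markers were open, or 62.5 and 50%, near the shares of other genes given above. Markers without a peak in any library included Cd4 and Cd8a of T cells, Adgre1 and C1qa of monocytes and macrophages, Dcx and Rbfox3 of neurons, Tek of endothelium and Col1a1 and Col1a2 of fibroblasts.

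Most clustered protocadherin promoters were closed in these cells. In replicates 1, 2 and 3, 4, 10 and 9 of the 57 genes had an open promoter, which is 7.02, 17.5 and 15.8%, against 51.8, 58.9 and 58.1% of the 21796 other protein-coding genes. The mean share was 13.5% ± 5.64 for the protocadherins and 56.3% ± 3.90 for the other genes (SD, n = 3). The differences, protocadherins minus other genes, were -44.8, -41.4 and -42.3 percentage points, and all 3 protocadherin values lay under all 3 values of the other genes. The mean difference was -42.8 ± 1.76 percentage points (exact sign-flip test over 3 libraries, two-sided, p = 0.25, the smallest that 3 libraries can give). A gene counted as open with a peak at any of its coding starts. With the most upstream start site alone the mean difference was -38.97 ± 1.91 percentage points (SD, n = 3). Only 4 members (7.02%) were open in all 3 libraries, against 51.4% of other genes, and 12 (21.1%) in at least 1, against 60.5% of other genes. Without replicate 1 the first count was 7, and with the smaller of the deposited peak lists, in which replicate 1 has no member, it was 0. The observed over expected CpG ratio of the 1 kb around the most upstream coding start had a median of 0.564 in members and 0.561 in other genes. The members' median pools unlike groups, with 0.686 in alpha and 0.378 in beta genes. Of the 4951 other genes whose ratio lay between the lower and upper quartiles of the members' ratios, 61.5% were open in all 3 libraries. Those genes were not matched in the share of G and C bases. Its median was 44.9% in members, 54.9% in all other genes and 56.2% in the 4951. The part of base content in openness was not tested.

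**Figure D1:**
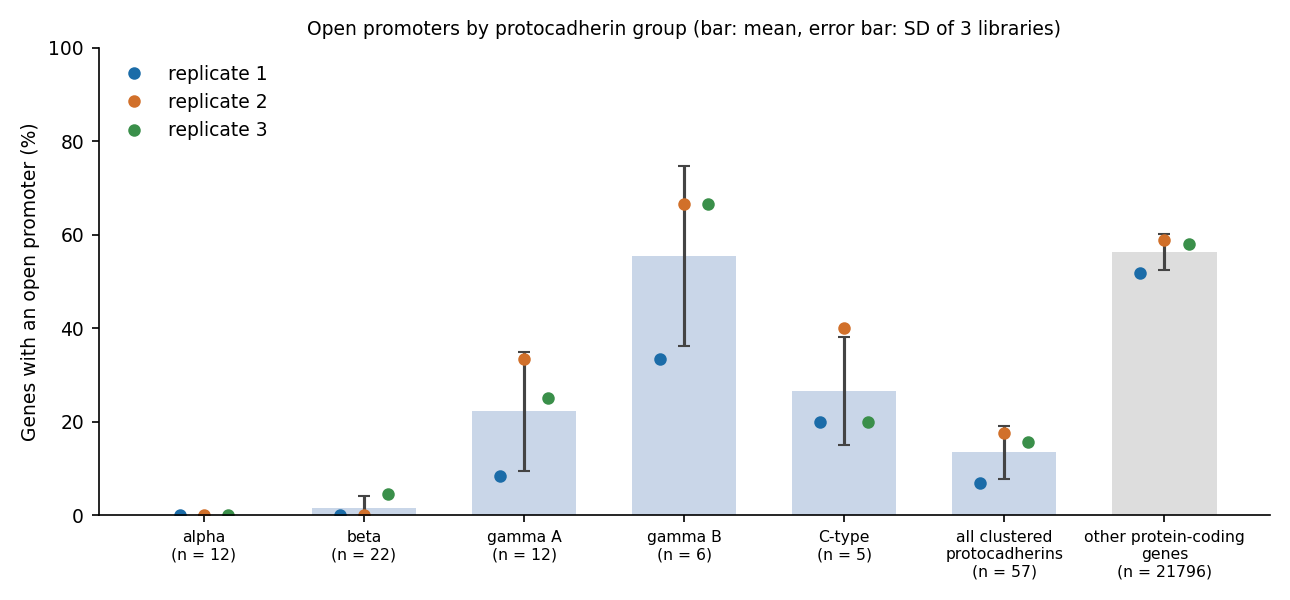
Share of genes with an open promoter, in %, by protocadherin group and for other protein-coding genes. Bars are means, error bars the SD of 3 libraries, and points the libraries. The alpha group sits at 0 in every library and the gamma B group between 33.3 and 66.7%, against 51.8 to 58.9% for other genes.

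The clusters differed in where peaks were found. None of the 12 alpha genes and neither Pcdhac1 nor Pcdhac2, the C-type genes of the alpha cluster, had a promoter peak in any library. The whole alpha cluster, chr18:36930184-37187661, held 0 peaks and 0 footprints in all 3 libraries over 257 kb, whereas the rest of chromosomes 1 to 19 and X held 15.4, 32.1 and 31.1 peaks per Mb in replicates 1, 2 and 3. In the beta cluster, 260 kb long, 1 of 22 promoters was open in 1 library. Pcdhb1, the first beta gene, had a 100 bp peak in replicate 3 with a signal of 0.211, at percentile 2.36 of that library's peaks, and its middle lay 373 bp past the start.

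Nearly all open members were gamma genes: 4, 10 and 8 of the 21 genes of the gamma cluster were open in replicates 1, 2 and 3, and 11 in at least 1 library. Of the 6 gamma B genes, 2, 4 and 4 were open, a mean of 55.6% ± 19.2 (SD, n = 3), close in level to the 56.3% of other genes. Of the 12 gamma A genes, 1, 4 and 3 were open, a mean of 22.2% ± 12.7. Of the 3 C-type genes of the gamma cluster, Pcdhgc3 was open in all 3 libraries, Pcdhgc4 in replicate 2 and Pcdhgc5 in none. With 5 to 22 genes in a group, 1 gene more or fewer moves a share by 4.55 to 20 percentage points, and no difference between the groups was tested.

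**Figure D2:**
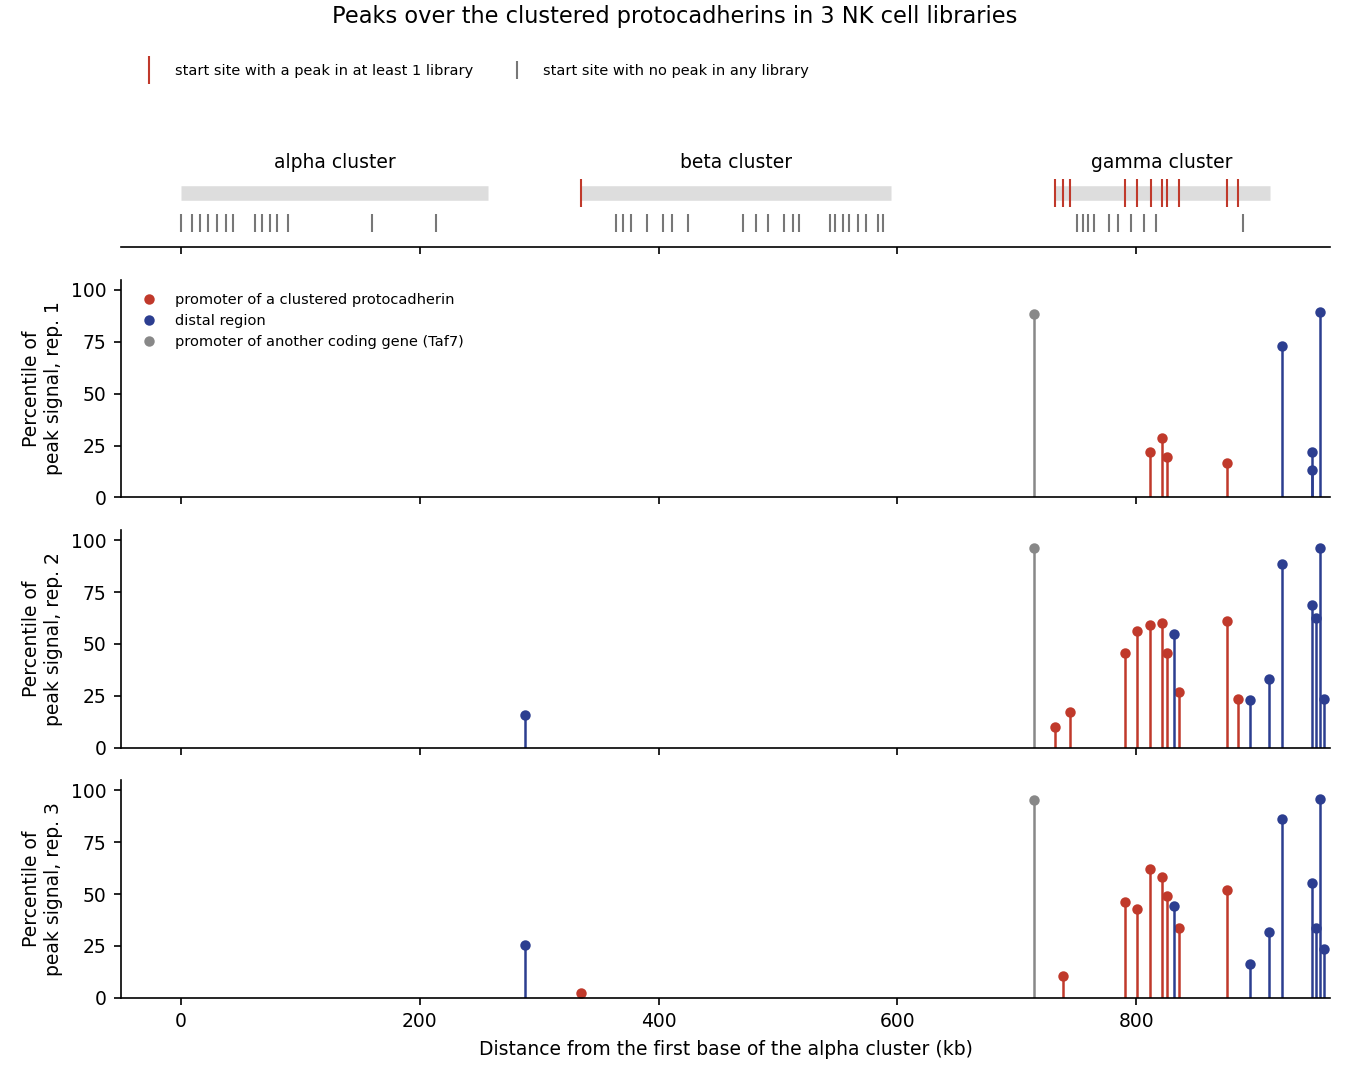
Peaks over the 3 clusters and the 50 kb on each side, by distance in kb from the first base of the alpha cluster. The upper strip marks the start sites of the 57 genes, and each panel gives the percentile of peak signal within 1 library. The alpha cluster is empty in all panels, and the 2 tallest stems, in each panel, are the Taf7 promoter between beta and gamma and a distal region 41.7 kb past the gamma cluster.

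The 4 promoters open in all 3 libraries belonged to Pcdhgb6, Pcdhgb7, Pcdhga11 and Pcdhgc3. The signal at Pcdhgb6 (start 37742094) was 0.613, 1.10 and 1.30 in replicates 1, 2 and 3, at percentiles 21.7, 59.3 and 61.9 of all peaks. Pcdhgb7 (start 37751600) had signals of 0.696, 1.13 and 1.13, at percentiles 28.6, 60.2 and 58.1. Pcdhga11 (start 37755731) had 0.590, 0.736 and 0.856, at percentiles 19.6, 45.8 and 49.2. These 3 genes lie next to each other but for Pcdhga10, which had no peak, and each ranked lowest in replicate 1. Pcdhgc3 (start 37806410), a C-type gene that stands apart from the variable gamma genes, had signals of 0.554, 1.17 and 0.935, at percentiles 16.4, 61.0 and 52.1. The mean percentiles of the 4 were 47.6 ± 22.5, 49.0 ± 17.7, 38.2 ± 16.2 and 43.2 ± 23.6 (SD, n = 3), and they overlapped one another.

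A further 3 promoters were open in replicates 2 and 3 but not in replicate 1. Pcdhgb4 had signals of 0.730 and 0.783 in replicates 2 and 3, at percentiles 45.4 and 46.0. Pcdhgb5 had 0.997 and 0.718, at percentiles 56.3 and 42.8. Pcdhga12 had 0.462 and 0.573, at percentiles 27.0 and 33.9. Together with the first 3 and the start of Pcdhgb8, described below, these made a run of open starts in the last part of the variable gamma exons, between Pcdhgb4 and Pcdhga12, in which Pcdhga8, Pcdhga9 and Pcdhga10 had no peak in any library. The remaining 5 were open in 1 library each and at low ranks: Pcdhga1, Pcdhga3 and Pcdhgc4 in replicate 2, at percentiles 9.96, 17.2 and 23.7, and Pcdhga2 and Pcdhb1 in replicate 3, at percentiles 10.7 and 2.36. Replicate 1, in which fewest members were open, also held fewest peaks and had the lowest percentiles at the B cell markers given above. The part of either in the members' values was not tested.

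**Figure D3:**
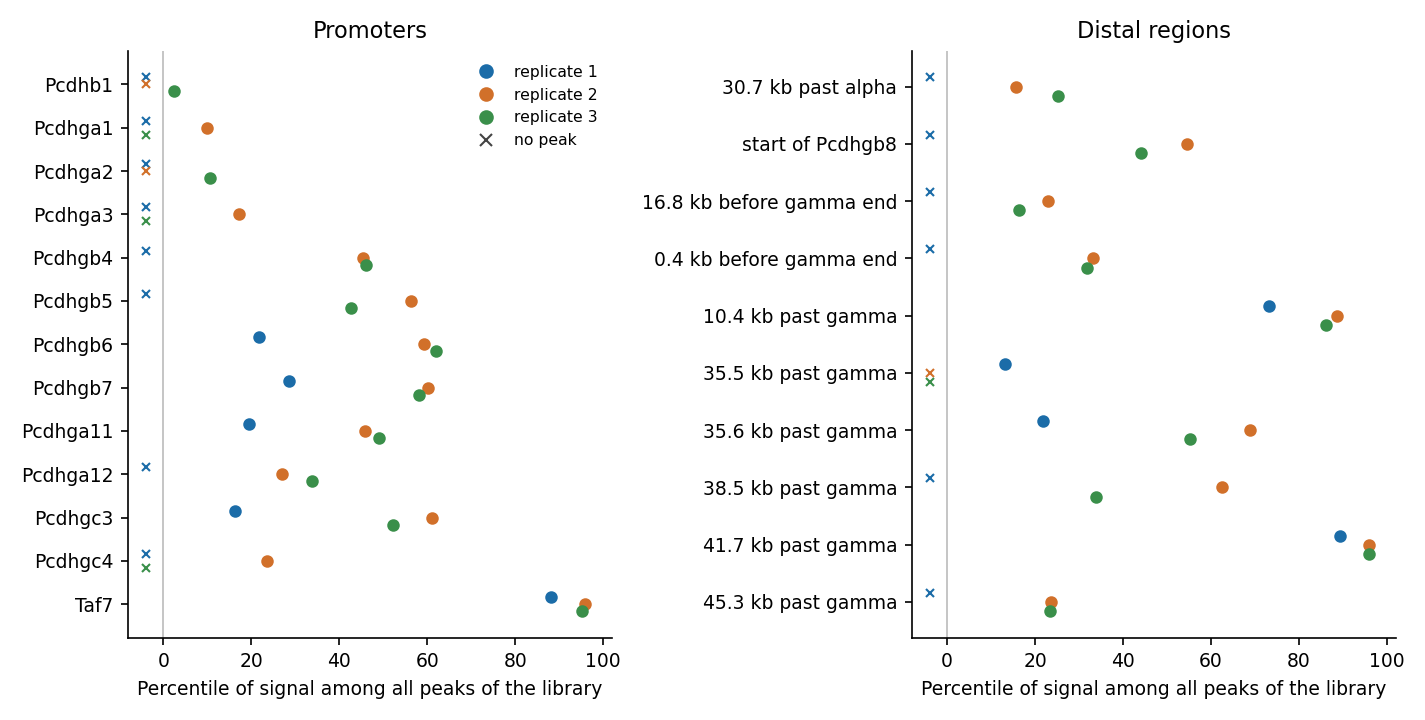
Percentile of signal among all peaks of each library, for the 12 member promoters with a peak and Taf7 (left) and for the 10 distal regions (right). Points are libraries and crosses mark no peak. Member promoters stay at or below percentile 61.9, whereas Taf7 lies at 88.2 or above.

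Open member promoters were weak among open promoters. Member promoter peaks had median percentiles of 20.6, 45.6 and 46.0 in replicates 1, 2 and 3, against 84.5, 90.6 and 90.2 for peaks at all coding promoters. Set among open promoters alone, Pcdhgb6 stood at percentiles 5.07, 17.4 and 18.4, Pcdhgb7 at 6.91, 17.8 and 16.8, and Pcdhgc3 at 3.86, 18.1 and 14.4. The member peaks were also narrow, with median widths of 104.5, 150 and 178 bp, against 220, 200 and 200 bp over all peaks. They lay at the start sites: for Pcdhgb4, Pcdhgb5, Pcdhgb6, Pcdhgb7, Pcdhga11 and Pcdhgc3 the middle of the peak lay between -107 and -8 bp from the start in every library with a peak. Those of Pcdhga12, Pcdhgc4 and Pcdhb1 lay 283 to 373 bp past the start. The Pcdhga11 peak region also overlapped the 500 bp on either side of a start of the non-coding gene Gm26672. Footprints were counted over the whole promoter, 500 bp on either side of the coding starts, and not over the peak alone. They were found at Pcdhgb6 in replicates 2 and 3 (3 and 5), at Pcdhgb7 in all 3 libraries (1, 4 and 3) and at Pcdhga11 in all 3 (1, 3 and 2). In replicates 2 and 3, Pcdhgc3 held 3 and 2 footprints, Pcdhgb5 2 and 4, Pcdhgb4 2 and 2, and Pcdhga12 1 and 3. Pcdhgc4 held 1 in replicate 2. Pcdhb1 held 1 in replicate 3, which lay outside its peak.

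The cut rate was also read without the peak calls. Both come from the same cuts of each library, so the cut rate is no independent check of the peaks. The lowest FDR in the Pcdhgb7 peak region was 0.00127, 1.82e-08 and 2.60e-11 in replicates 1, 2 and 3, and in the Pcdhgb6 region 0.00584, 1.15e-07 and 7.17e-12. At the Taf7 promoter it was 2.93e-38, 1.37e-186 and 7.35e-112. Of the members without a peak, 53, 47 and 48 in replicates 1, 2 and 3, the only one with any base at an FDR of 0.05 or less was Pcdhga5, with 1 base in replicate 2.

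Other coding genes start inside the clusters. Taf7, a subunit of the general transcription factor TFIID, is read from the opposite strand between beta and gamma (start 37644204). It had signals of 4.38, 11.9 and 11.3 in replicates 1, 2 and 3, at percentiles 88.2, 96.0 and 95.2, all above every member. Slc25a2, a mitochondrial carrier gene that lies beside it, had no peak, nor had 3 read-through models that start among the alpha genes (Gm42416, Gm37013 and Gm37388). Pcdhgb8, which the annotation calls a polymorphic pseudogene and which is therefore no member, had a peak over its start in replicates 2 and 3, at percentiles 54.5 and 44.1. That is within the range of the neighbouring gamma B genes.

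Around the clusters, the regions with the highest percentiles were the Taf7 promoter and a distal region past the gamma cluster. Peaks of the 3 libraries merged into 23 regions in the clusters and 50 kb on each side: 12 at member promoters, 1 at Taf7 and 10 distal ones, which overlap no coding promoter and include the start of Pcdhgb8. Of the distal regions, 3 were found in all 3 libraries, 6 in 2 libraries and 1 in a single library, so that 9 were found in at least 2, or 3 without replicate 2 or without replicate 3. All 3 that were found in every library lay past the end of the gamma cluster, in introns of Diaph1, the gene of a formin that nucleates actin filaments.

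The strongest distal region, chr18:37883521-37883720, lies 41.7 kb past the gamma cluster and had signals of 4.66, 11.9 and 12.2 in replicates 1, 2 and 3, at percentiles 89.2, 96.0 and 95.8. The next, chr18:37852201-37852400, lies 10.4 kb past the cluster and had 2.09, 5.04 and 4.50, at percentiles 73.1, 88.7 and 86.2. In every library both ranked above every member promoter. The third, chr18:37877386-37877620, had 0.613, 1.58 and 1.03, at percentiles 21.7, 68.9 and 55.1, and a separate narrow peak directly before it was called in replicate 1 alone. Both chr18:37880301-37880500, at percentiles 62.4 and 33.9, and chr18:37887081-37887256, at percentiles 23.7 and 23.4, were found in replicates 2 and 3.

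None of the distal regions inside the clusters was found in replicate 1. The strongest of them by mean percentile was the start of Pcdhgb8, given above. A region 30.7 kb past the end of the alpha cluster, chr18:37218261-37218460, lies between genes and stood at percentiles 15.8 and 25.2 in replicates 2 and 3. It was the only region between the alpha and beta clusters. In the gamma cluster, chr18:37825007-37825100 lies in a constant exon shared by all 21 gamma members and stood at percentiles 23.0 and 16.3. It also overlapped the 500 bp on either side of a start of Gm38182, which is not among the protein-coding genes. The last constant exon held chr18:37841361-37841580, at percentiles 33.1 and 31.9.

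Over the whole 50 kb on each side, member promoter peaks did not rank apart from distal peaks in a way that held across libraries. The medians were 20.6 at 4 member promoter peaks against 47.4 at 4 distal peaks in replicate 1, 45.6 at 10 against 54.5 at 9 in replicate 2, and 46.0 at 9 against 33.9 at 9 in replicate 3. The difference had a mean of -7.84 ± 19.5 percentiles (SD, n = 3; exact sign-flip test, two-sided, p = 0.75). It changed sign between libraries and took the opposite sign on the mean without replicate 1 (1.62). Inside the clusters alone, with no flank, member promoter peaks ranked above distal ones by a mean of 17.5 ± 0.0491 percentiles in replicates 2 and 3 (SD, n = 2; exact sign-flip test, two-sided, p = 0.5, the smallest that 2 libraries can give), and replicate 1 had no distal peak there.

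Counted by length, the cluster interval was poor in peaks, and the 50 kb past it was not. The interval held 5, 15 and 14 peaks in replicates 1, 2 and 3, or 5.48, 16.5 and 15.4 per Mb, against 15.4, 32.1 and 31.1 per Mb over the rest of chromosomes 1 to 19 and X. The log2 ratios were -1.49, -0.96 and -1.02, with a mean of -1.15 ± 0.29 (SD, n = 3; exact sign-flip test, two-sided, p = 0.25). Footprints numbered 8, 33 and 37, or 8.77, 36.2 and 40.6 per Mb in the cluster, against 38.7, 90.9 and 84.6 per Mb elsewhere. Their log2 ratios of -2.14, -1.33 and -1.06 averaged -1.51 ± 0.56 (SD, n = 3; exact sign-flip test, two-sided, p = 0.25). The gamma cluster itself held 22.2, 66.6 and 61.1 peaks per Mb, and the 50 kb past it 80, 100 and 100, more than the rest of the genome in each library. Those 50 kb held only 4, 5 and 5 peaks. The 50 kb before the alpha cluster held 0 peaks and 0 footprints in each library. Footprints were fewer per peak in the cluster, 1.60, 2.20 and 2.64, against 2.52, 2.83 and 2.73 elsewhere. The cluster counts include the Taf7 promoter, which is no member and held 6, 8 and 5 of the footprints. In the gamma cluster alone there were 0.50, 1.92 and 2.64 footprints per peak.

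**Figure D4:**
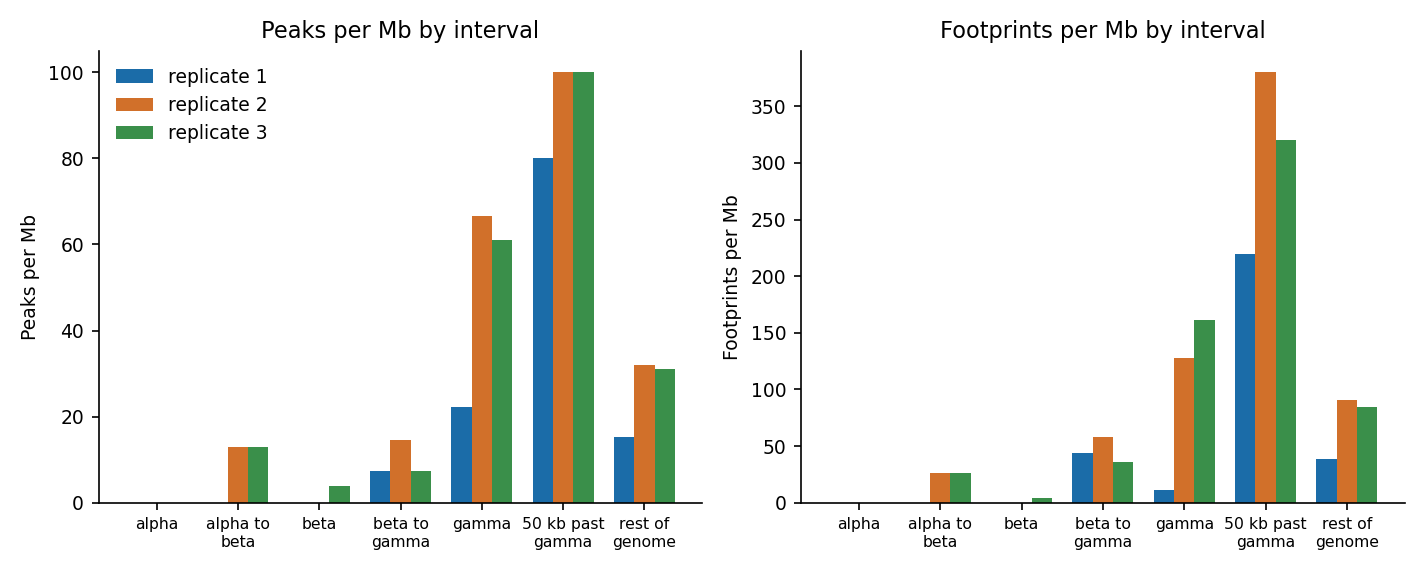
Peaks (left) and footprints (right) per Mb in each interval of the clusters, in the 50 kb past the gamma cluster and in the rest of chromosomes 1 to 19 and X. Bars are libraries. Alpha has none, and the 50 kb past gamma has 80 to 100 peaks per Mb, against 15.4 to 32.1 in the rest of the genome. The 50 kb before alpha, which also has none, is not drawn.

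The promoters were next described by sequence, searched on both strands. For this, 1 promoter per gene was read, around its most upstream coding start, whereas openness used every coding start. No sequence of this chromosome is printed here. A CTCF consensus of 12 positions occurred in 1 of 57 member promoters (1.75%), that of Pcdha5, and in 3.17% of other promoters. The consensus of REST, a repressor of neuronal genes, occurred with up to 3 mismatches in 0 members and in 1.27% of other promoters. Allowing 1 mismatch in the CTCF consensus, a choice made after the members' sequences were examined, gave 16 of 57 members (28.1%) and 33.4% of other promoters, so that this looser form is common. In that form 11 of 12 alpha promoters, all but Pcdha8, held a match on the opposite strand, 316 to 441 bp past the start, whereas 18.9% of other promoters held one on that strand. The letters GGCGCT, which hold the CGCT core known from protocadherin promoters, were also searched after the sequences were examined. They lay on the gene's strand within 150 bp before the start in 18 of 22 beta promoters, in 0 of 12 alpha, 0 of 12 gamma A and 0 of 6 gamma B promoters, in 2 of 5 C-type promoters (Pcdhac1 and Pcdhgc3), and in 6.06% of other promoters. Such matches describe letters only, and most of these promoters were closed.

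Among the regions with a peak, none of the 12 at member promoters held the CTCF consensus. It occurred on the minus strand in 2 of 10 distal regions, those 10.4 and 45.3 kb past the gamma cluster, against 10.3, 8.81 and 8.71% of the 200 bp windows around all peaks of replicates 1, 2 and 3. In the region at 10.4 kb the match lay in a footprint, with at least 50% of its length inside, in all 3 libraries, and in that at 45.3 kb in replicate 2. With 1 mismatch, matches were found in 5 of 10 distal regions (windows of 200 bp) and 0 of 12 member promoter regions, against 28.3, 27.7 and 26.8% of all peaks.

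Protocadherin genes arose by duplication, and near-identical copies limit how reads can be placed. Words of 32 bases were read from 1 promoter per gene, around its most upstream coding start. The share found at 1 place only in the reference genome had a median of 98.5% over the 57 members, 77.9% in alpha, 100% in beta, 98.1% in gamma A, 80.8% in gamma B and 100% in C-type genes. It was 98.7% in the 12 members open in at least 1 library and 97.3% in the 45 closed ones. These pooled medians hide a difference within gamma B. There the open Pcdhgb4, Pcdhgb5, Pcdhgb6 and Pcdhgb7 held 71.0, 77.5, 80.4 and 81.1% unique words, and the closed Pcdhgb1 and Pcdhgb2 100%. The alpha promoters, with the low median given above, were all closed. A link between unique words and openness was not tested. The peak regions of Pcdhgb6 and Pcdhgb7 each held 72.2% unique words, and the region in the last constant exon 84.1%. All other regions held 100%. How reads with several possible places were handled is not given in the sources used here. Words were counted on the reference genome alone, and the sequence of the B6CASTF1/J mice was not examined.

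The genes known to act on or with these clusters were mostly open, unlike the clusters. Of 20 regulators (CTCF, cohesin and its loaders, and the silencing factors), 19 were open in all 3 libraries, against 51.4% of other genes, and Dnmt3b, a DNA methyltransferase, was open in replicates 2 and 3. The highest mean percentiles were those of Smc3 and Stag1, cohesin subunits, at 99.2 ± 0.73 and 98.6 ± 0.69, of Dnmt1, the maintenance DNA methyltransferase, at 97.8 ± 0.14, and of Trim28, a corepressor, at 97.5 ± 0.71 (SD, n = 3). Ctcf, named for its role after its values were seen, stood at 93.1 ± 2.17. All 13 cytoplasmic partners of protocadherins, the focal adhesion kinases, the WAVE complex, Axin1 and Fyn, were open in all 3 libraries. The highest were Axin1, Fyn, Abi1 and Wasf2, at 94.8 ± 1.88, 94.3 ± 1.86, 93.2 ± 3.60 and 91.4 ± 4.66. An open promoter is no measure of transcript.

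The non-clustered protocadherins, single genes on other chromosomes or elsewhere on this one, resembled the clustered ones in being mostly closed. Of 12 genes, 2, 5 and 3 were open in replicates 1, 2 and 3. The mean share was 27.8% ± 12.7, above the 13.5% ± 5.64 of the clustered genes (SD, n = 3). Open in all 3 libraries were 2 (16.7%), against 51.4% of other genes. In at least 1 library 5 were open (41.7%), against 21.1% of the clustered and 60.5% of other genes. The remaining 7 had no peak in any library, Pcdh10 and Pcdh11x among them. Pcdh17 had signals of 0.790, 1.71 and 2.06 in replicates 1, 2 and 3, with a mean percentile of 59.7 ± 21.2, and Pcdh19 had 0.342, 0.430 and 0.395, with 14.7 ± 11.4 (SD, n = 3). The clustered and non-clustered genes were not tested against each other.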

How the data were processed

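Per the deposited descriptions, each list was called by the authors from the filtered alignments of 1 library on mm10. Aligner and callers: not given in the sources used here. The deposited signal of a peak is relative to its library in a unit that is not stated, so it was used as a percentile within the library. The deposited footprints carry a constant score, and only their positions were used. The deposited cut rate files give q-values up to 0.05. The larger of the authors' 2 peak lists per library was used.

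A promoter was each start site of a gene's protein-coding transcripts with 500 bp on each side. Open promoters shared at least 1 bp with a peak. Base content, motifs and unique words of promoters were read around the most upstream coding start of each gene alone. Peaks of the 3 libraries were merged into regions, and a region was distal where it overlapped no protein-coding promoter. Peaks and footprints were counted by their middle over the clusters, with and without 50 kb on each side. Tests were two-sided exact sign-flip tests over 3 libraries. The overlap of promoters with peaks, not the tests, was checked on simulated peaks. Python 3.11.15 with numpy 2.4.6 and pandas 2.3.3 was used. The members, gene lists and tests were chosen with earlier results of these data known. An item of the marker lists is not reported here.

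Named were all members with a peak, the other coding genes starting in the window, distal regions in at least 2 libraries, and from each list up to 4 genes open in all 3 libraries with the highest mean percentile and up to 2 without a peak in alphabetical order. Alternatives were other promoter widths and start sites, the smaller peak list, the 50% of peaks with the highest signal, other overlap and merging rules, other intervals and leaving out each library.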

Additional observations from a re-analysis of the deposited data

How the results depend on the processing

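The share of open member promoters stayed below that of other genes in all 12 alternatives, with differences of -38.97 to -47.4 percentage points, and peaks and footprints per Mb stayed lower in the cluster in all 11. The difference of -38.97 came with the most upstream start site alone. The log2 ratio of peaks was -1.77 with the smaller peak list, -1.98 with the 50% of peaks with the highest signal and -0.74 with 50 kb on each side, where that of footprints was -0.85. No member was open in all 3 libraries with the smaller peak list (0) or the 50% of peaks with the highest signal (0), since replicate 1 then held no member. Without 1 library the number open in the others was 4 to 7, with 7 reached without replicate 1. Distal regions in at least 2 libraries numbered 9, but 3 with the 50% of peaks with the highest signal, 4 with no flank, and 3 to 9 without 1 library, with 3 reached without replicate 2 and without replicate 3. The difference between member promoter and distal peaks was 17.5 percentiles with no flank, from 2 libraries, and -17.9 to 1.62 without 1 library. The cause was not tested. Counting Pcdhgb8 as a member gave -41.9 percentage points, and counting starts of non-coding genes as promoters left 7 distal regions, both chosen after seeing the data. For the 12 members with a peak, 72 of 96 recomputed numbers of open libraries were equal and 24 were lower. No paired analysis was possible because there is 1 group.

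Read depth is unknown from these files, and a closed promoter is one without a listed peak. With 3 libraries of 1 donor label the smallest p of any test was 0.25.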

Other observations

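The alpha cluster, which held no peak, was not wholly without cuts. Bases at an FDR of 0.05 or less numbered 0, 12 and 10 over its 257 kb in replicates 1, 2 and 3, none of them in a member promoter, against 484, 2497 and 2721 over the 180 kb of the gamma cluster. The narrow peak 35.5 kb past the gamma cluster, called in replicate 1 alone, covered bases at an FDR of 0.0216 in that library and of 0.00282 and 0.00812 in replicates 2 and 3. It ends at 37877382, directly before the region chr18:37877386-37877620, whose lowest FDR was 2.47e-17 and 1.53e-12 in replicates 2 and 3. Whether its bases belong to that region was not tested.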
